A study of Mus musculus with 65 samples.

Results

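Lysosomal genes were followed here as a set of 34 named genes, out of 49670 gene IDs in the count table. The list holds proteases, glycosidases and a sulfatase, lipid hydrolases, their cofactors, membrane proteins and the transcription factor Tfeb. Members were found by matching the mouse symbols of the list to the table's Ensembl IDs, and all 34 had counts high enough to be tested in every tissue and age. The libraries came from C57BL/6J mice that were either wild type or carried the Atxn1[82Q] knockin, a model of spinocerebellar ataxia type 1 in which the endogenous Atxn1 locus encodes a protein with an expanded polyglutamine tract. The knockin mice were treated with vehicle or with an antisense oligonucleotide (ASO) directed at the Atxn1 transcript, and every wild-type mouse was treated with vehicle. Cerebellum was sampled at 18 weeks of age with 4 libraries per group, and medulla and pons at 18 weeks with 3 per group. At 28 weeks, medulla had 8 wild-type, 8 knockin vehicle and 7 knockin ASO libraries in 2 labelled batches, and pons had 4 libraries per group. The labels do not say that libraries of a group came from separate mice, so p-values measure the spread between libraries. In whole tissue, fewer cells of a type and less RNA per cell cannot be told apart.

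Lysosomes are acidic organelles in which proteins, glycans and lipids delivered by endocytosis, phagocytosis and autophagy are broken down. Their hydrolases are made as precursors, sorted to the organelle through receptors that read a mannose phosphate tag, and activated by the acid pH that the V-ATPase maintains. Many of these genes carry a CLEAR element, a short palindromic motif bound by TFEB and its relatives of the MiT/TFE family, near their start sites. In the brain some members are expressed in nearly all cells, while others, such as Ctss and Laptm5, are best known from microglia, the resident macrophages of the tissue.

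The promoter sequences of the members showed which of them carry that motif. RefSeq windows (GRCm38.p6) from 250 bases before to 50 bases after the start site were matched by symbol for 29 of the 34 genes. The 8-base form TCACGTGA, which reads the same on both strands, was found in the windows of 4 of the 29 (13.8%), against 304 of 27025 genes overall (1.12%). Its 6-base core CACGTG, which lies inside every TCACGTGA, was found in 9 of the 29 (31.0%: Ctsa, Ctsd, Ctsf, Ctsl, Gla, Glb1, Lamp1, Lgmn and Mcoln1), against 2187 of 27025 (8.09%). The choice of members did not use promoter sequence, but the CLEAR element is known from lysosomal genes. Its higher share among them is thus no independent result, and the stretches around the 8-base motif are shown as a description. They are given 5′ to 3′ on the gene's strand, with motif letters in capitals.

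Ctsa, chr2:164833730-164833814, plus strand: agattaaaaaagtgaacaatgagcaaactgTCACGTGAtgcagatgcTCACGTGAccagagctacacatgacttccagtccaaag
Ctsd, chr7:142387889-142387956, minus strand: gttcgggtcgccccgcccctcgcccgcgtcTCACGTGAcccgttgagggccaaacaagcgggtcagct
Mcoln1, chr8:3500443-3500510, plus strand: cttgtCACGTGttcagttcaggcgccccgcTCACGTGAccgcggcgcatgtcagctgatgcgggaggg
Gla, chrX:134601163-134601255, minus strand: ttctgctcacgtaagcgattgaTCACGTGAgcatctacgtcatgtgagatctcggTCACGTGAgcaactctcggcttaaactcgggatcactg
Ctsa and Gla each hold the motif at 2 places, and Mcoln1 and Ctsd each hold a separate 6-base core elsewhere in the window, which for Ctsd lies outside the stretch shown. Of the 6 genes with the leading differences under ASO, Ctsd held both forms, Ctss, Laptm5, Grn and Hexa held neither, and Ctsh had no window. A match describes the letters only and a missing match says nothing about binding.

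Library totals ran from 49.2 to 119.1 M counts (M, mega), with a median of 77.0 M. Levels are given as CPM, counts per M counts of the library after scaling by trimmed mean of M-values factors. Differences are log2 values from edgeR's quasi-likelihood test ± its standard error, and a gene was called when its p adjusted over all genes tested in that comparison was below 0.05. Atxn1 checked the labels. In cerebellum at 18 weeks its level was 57.9 to 65.0 CPM in knockin vehicle libraries and 32.1, 39.4, 20.2 and 50.3 CPM in ASO replicates 1 to 4, a difference of -25.8 CPM (exact permutation test, two-sided p = 0.029, the smallest that 4 against 4 allows). In medulla at 18 weeks the vehicle libraries held 42.7 to 48.4 CPM of Atxn1 and the ASO libraries 13.3, 38.4 and 20.8 CPM, and in pons at 18 weeks 44.7 to 49.3 CPM against 16.6, 50.9 and 24.2 CPM. At 28 weeks Atxn1 in the medulla library labelled ASO replicate 2 was 49.3 CPM, where the other 6 ASO libraries had 24.8 to 33.5 CPM. The pons library labelled ASO replicate 2 had 52.4 CPM, where the other 3 had 26.7 to 36.8 CPM. Of the libraries labelled wild type replicate 3 at 18 weeks, that of medulla had 15.1 CPM and that of pons 16.5 CPM, below the 32.7 to 51.0 CPM of the other wild-type libraries of both tissues. Atxn1 thus went against the label in 5 libraries: ASO replicate 2 of pons at 18 weeks and of medulla and pons at 28 weeks, and wild type replicate 3 of medulla and pons at 18 weeks. ASO replicate 2 of medulla at 18 weeks, with 38.4 CPM, lay just below the vehicle range and is treated with them. Most main counts that rest on these libraries are given without them too, or as a range with any 1 library left out. Shares of all genes by p are those of the main edgeR fit. Counts of members under DESeq2 or another alternative have no such share of their own, so they are not set against a background. Exact permutation p-values for ASO against vehicle were 0.1 in medulla and 0.4 in pons at 18 weeks, where 0.1 is the smallest possible, 0.0057 in medulla at 28 weeks within batches, and 0.057 in pons at 28 weeks. The table's column headers carry a number that libraries of different tissues share (21 of 38 numbers occur with 2 or 3 tissues), and the medulla and pons libraries labelled ASO replicate 2 carry the same number at each age, so the tissues are not independent sets.

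The first question was whether lysosomal genes differed between ASO-treated and vehicle-treated knockin mice. The members with the leading differences were Ctss, Laptm5, Ctsh, Grn, Hexa and Ctsd, which were higher under ASO in most tissues and ages, by up to 0.85 on the log2 scale. 1 member in 1 tissue and age passed the adjusted test: Ctss in medulla at 28 weeks. At an unadjusted p under 0.05, 8 of 34 members were higher in cerebellum (5.71% of all genes), 8 in medulla (3.56%) and 1 in pons (3.83%) at 18 weeks. At 28 weeks 3 were higher in medulla (6.79%) and 12 in pons (7.54%). In pons at 18 weeks 2 were lower (2.46%), and in medulla at 28 weeks 1 (5.3%). The 1 higher in pons at 18 weeks and both counts in medulla at 28 weeks were thus near the share of all genes.

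**Figure D1:**
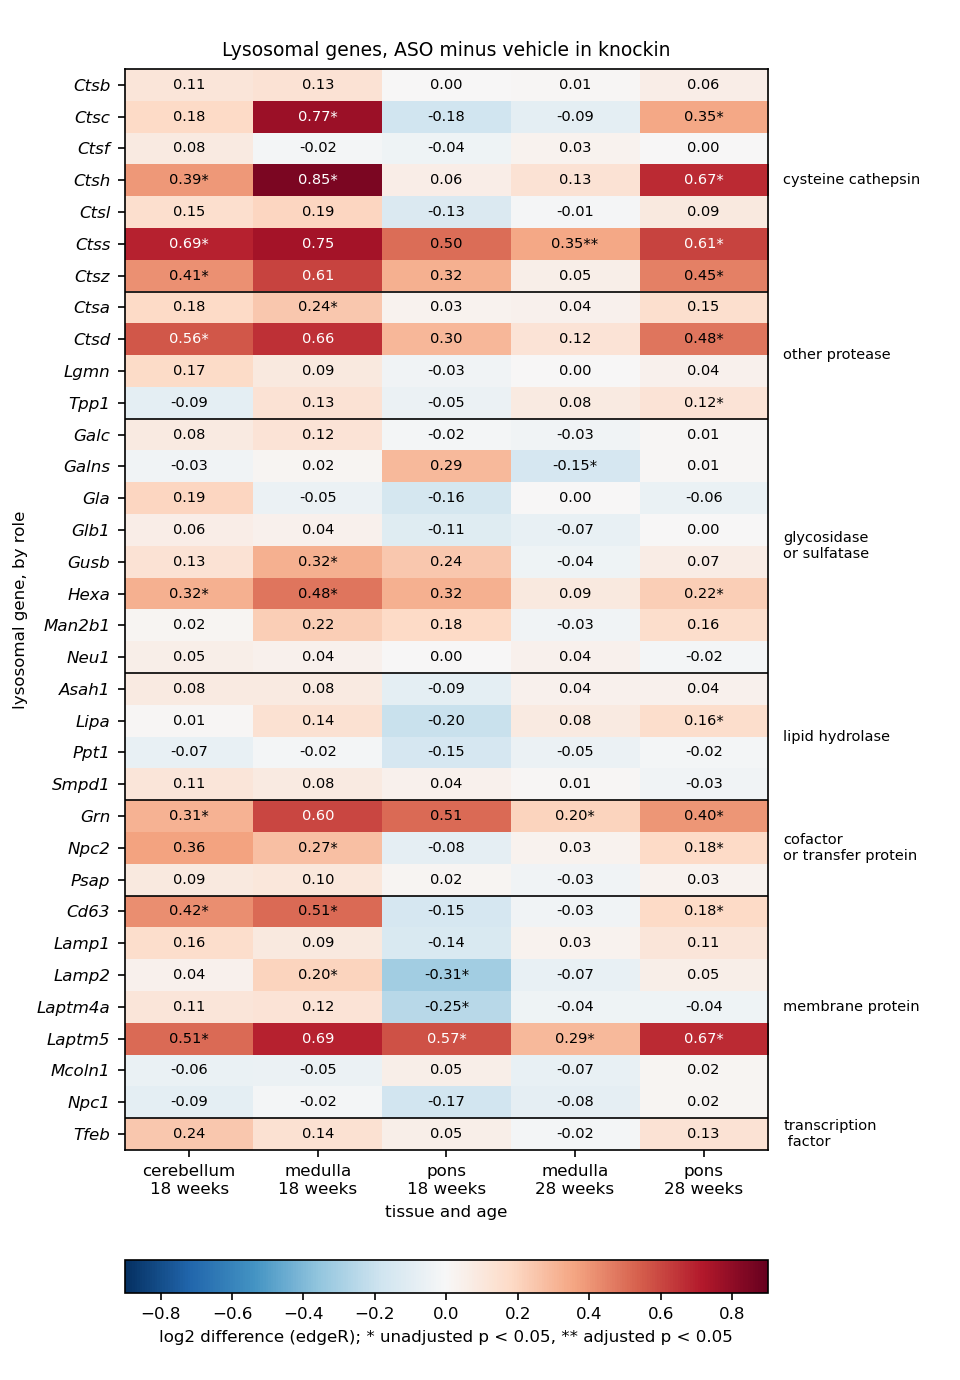
Log2 difference of ASO minus vehicle in knockin mice for each of the 34 lysosomal genes (rows, by role) in each tissue and age (columns), from edgeR, with 1 star for an unadjusted p under 0.05 and 2 stars for an adjusted p under 0.05. Differences ran from -0.31 (Lamp2, pons 18 weeks) to 0.85 (Ctsh, medulla 18 weeks), and Ctss in medulla at 28 weeks is the only cell with 2 stars.

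In cerebellum, edgeR called 0 of 34 members for ASO against vehicle, where it called 0.0491% of all 20350 genes tested. DESeq2 called 1, Laptm5. The 8 members higher at an unadjusted p under 0.05 stood against 5.71% of all genes, with 0 lower against 1.93%. The median member differed by 0.12 and the median of all genes by 0.02, and 29 of the 34 differences were above 0. Laptm5, a lysosomal membrane protein of blood-lineage cells, had levels of 12.2, 13.6, 12 and 13.4 CPM in vehicle replicates 1 to 4 and 21.4, 19.6, 18.8 and 13.3 CPM in ASO replicates 1 to 4. ASO replicates 1 to 3 lay above every vehicle library and replicate 4 lay among them, and the difference was 0.51 ± 0.12 (adjusted p = 0.2). Ctss, the cysteine protease cathepsin S, had 45.7, 54.5, 41.4 and 47.7 CPM under vehicle and 78.4, 72.6, 111.9 and 43.3 CPM under ASO, with a difference of 0.69 ± 0.21 (adjusted p = 0.36). Ctsd, the main aspartic protease of lysosomes, had 174.0, 190.9, 189.0 and 202.0 CPM under vehicle and 272.3, 216.5, 431.0 and 193.6 CPM under ASO. For all 3 genes ASO replicate 4, the library with the highest Atxn1 of its group, was the lowest of the 4. Hexa, which encodes a glycosidase subunit needed to break down gangliosides, differed by 0.32 ± 0.12 (adjusted p = 0.52), with replicate 4 again at 45.7 CPM inside the vehicle range of 43.9 to 48.3 CPM. Without ASO replicate 3 the median member differed by 0.04, with 6 members higher and 1 lower at an unadjusted p under 0.05, and without vehicle replicate 1 the count of higher members was 4. Without ASO replicate 4, Ctss (0.88, adjusted p = 0.023) and Laptm5 (0.63, adjusted p = 0.0085) were called. 2 members had groups that did not overlap, Galc and Tfeb, both higher (2.73% of all genes were so, and 1.62% lower). Tfeb had 16.2 to 16.7 CPM under vehicle and 16.8, 17.6, 26.2 and 16.8 CPM under ASO, with replicate 3 alone far above the rest.

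In medulla at 18 weeks, edgeR and DESeq2 both called 0 of 34 members, and edgeR called 0.0% of all 19514 genes tested. The 8 members higher at an unadjusted p under 0.05 stood against 3.56% of all genes, with 0 lower against 1.08%, and the median member differed by 0.14 (all genes 0.0). Cd63, a tetraspanin of late endosomes and lysosomes, had 45.3, 49.8 and 51.2 CPM under vehicle and 81.2, 68.2 and 59.6 CPM under ASO, a difference of 0.51 ± 0.14 (adjusted p = 1.0). Ctsh, the aminopeptidase cathepsin H, had 11.4, 10.9 and 11.5 CPM under vehicle and 29.4, 14.4 and 17.3 CPM under ASO, a difference of 0.85 ± 0.27. For both genes every ASO library exceeded every vehicle library, with ASO replicate 1 the highest. Hexa had 46.5, 40.5 and 43.4 CPM under vehicle and 75.2, 52.8 and 53.5 CPM under ASO (0.48 ± 0.15). Npc2, which carries cholesterol out of the lysosome lumen, had 108.7, 104.0 and 113.1 CPM under vehicle and 140.0, 136.9 and 116.7 CPM under ASO (0.27 ± 0.1). In all, 15 of 34 members had higher ASO groups that did not overlap with vehicle, where 7.19% of all genes were higher and 6.88% lower in that way. They were Ctsa, Ctsb, Ctsc, Ctsd, Ctsh, Ctss, Ctsz, Lgmn, Tpp1, Hexa, Gusb, Psap, Npc2, Cd63 and Tfeb. The library labelled ASO replicate 2, whose Atxn1 was near the vehicle level, had 26 of 34 members above all vehicle libraries, as many as replicate 1, and replicate 3 had 20 (28.8% to 30.6% of all genes lay above in these libraries). Without the libraries labelled ASO replicate 2 and wild type replicate 3, 0 members were called and 12 were higher at an unadjusted p under 0.05. That count was 4 without ASO replicate 1, vehicle replicate 1 or vehicle replicate 2, and 14 without wild type replicate 3. Choroid plexus markers summed to 60.5, 6571.7 and 27.6 CPM in ASO replicates 1 to 3 and to 47.1 to 1219.0 CPM under vehicle, and their part in these differences was not tested.

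In pons at 18 weeks Laptm5 and Grn had the highest differences and Lamp2 and Laptm4a the lowest among the members of smallest p. edgeR and DESeq2 called 0 of 34 members (0.0% of all 19806 genes by edgeR), 17 of 34 differences were above 0, and the median was -0.01 (all genes 0.0). 1 member was higher at an unadjusted p under 0.05 (3.83% of all genes) and 2 were lower (2.46%). Laptm5 had 21.8, 18.9 and 22.5 CPM under vehicle and 37.8, 24.3 and 31.7 CPM under ASO, a difference of 0.57 ± 0.23 (adjusted p = 0.75). Grn, which encodes progranulin, a secreted and lysosomal glycoprotein, had 48.9, 30.6 and 45.9 CPM under vehicle and 64.3, 47.6 and 67.4 CPM under ASO (0.51 ± 0.23). For both genes the library labelled ASO replicate 2 was the lowest of the 3. Laptm4a, a membrane protein of endosomes and lysosomes, had 297.0, 328.9 and 280.2 CPM under vehicle and 261.7, 256.4 and 243.8 CPM under ASO (-0.25 ± 0.1). Lamp2, a heavily glycosylated protein of the limiting membrane, had 184.0, 178.3 and 138.0 CPM under vehicle and 147.6, 132.1 and 124.1 CPM under ASO (-0.31 ± 0.13). Groups did not overlap for 1 higher member (Laptm5, against 5.9% of all genes) and 2 lower ones (Npc1 and Laptm4a, against 5.49%). Without the 2 libraries whose Atxn1 went against the label, 4 members were higher and 0 lower at an unadjusted p under 0.05, and with any 1 library left out 0 to 3 were higher and 0 to 2 lower. Vehicle replicate 1 held 10152.4 CPM of summed choroid plexus markers against 16.1 to 168.9 CPM in the other vehicle libraries, and its part in the lower values of Lamp2 and Laptm4a under ASO was not tested.

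In medulla at 28 weeks Ctss rose under ASO, and it was the 1 member of 34 called, where 1.69% of all 20465 genes tested were called (1.3% higher, 0.386% lower). Ctss ranged from 78.3 CPM through a median of 97.6 to 124.8 CPM in the 8 vehicle libraries and from 92.2 through 123.0 to 145.0 CPM in the 7 ASO libraries. The groups overlapped, since the library labelled ASO replicate 2 (92.2 CPM) lay below the vehicle median and vehicle replicate 6 (124.8 CPM) above the ASO median. The difference was 0.35 ± 0.08 (adjusted p = 0.029). Over 32 alternative settings it stayed between 0.25 and 0.43 and was called in 17, with adjusted p from 0.0032 to 0.36. It was not called within batch 1 (0.43, adjusted p = 0.36) or batch 2 alone (0.25, adjusted p = 0.25), nor with the ASO and vehicle groups fitted without wild type (adjusted p = 0.092). It was also lost without ASO replicate 1, 3, 4 or 6, or without vehicle replicate 1, 4, 5, 7 or 8. Without 4 libraries low in Hox genes 0 members were called. The 8 caudal Hox genes used as medulla markers summed to as little as 12.3 (wild type), 8.95 (vehicle) and 5.53 CPM (ASO). The group medians were 168.2, 152.3 and 154.9 CPM, and pons libraries at 28 weeks had 5.92 to 27.2 CPM. Whether such libraries hold tissue of another region was not tested. Without the library labelled ASO replicate 2, Ctss (0.39, adjusted p = 0.0039) and Laptm5 (0.34, adjusted p = 0.035) were called. Ctss lies on chromosome 3 at 95526786 to 95556403 on the plus strand (GENCODE vM21, GRCm38), and a pseudogene, Hmgb1-ps5, overlaps it on that strand, so reads could be split between them. Ctsd, Ctsl, Glb1 and Galns also overlap a gene on their own strand. Ctsa, Ctsb, Ctsc, Ctsl, Ctsz, Lamp1, Hexa, Galc, Galns, Grn, Npc1 and Ppt1 overlap an antisense gene, and as no source used here states whether counting used strand, reads of the 2 partners may not be told apart.

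Other members differed less in medulla at 28 weeks. 3 members were higher and 1 lower at an unadjusted p under 0.05, against 6.79% and 5.3% of all genes, and the median member differed by 0.01 (all genes -0.01). Grn (0.2 ± 0.06, adjusted p = 0.13) and Laptm5 (0.29 ± 0.09, adjusted p = 0.15) were the other members above 0 at that level, and Galns, a sulfatase of keratan and chondroitin sulfate, was the member below it (-0.15 ± 0.07, adjusted p = 0.37). 0 members had groups that did not overlap, as did 0.0831% of all genes in the higher and 0.0977% in the lower direction. Vehicle replicate 2 held 24452.4 CPM of summed choroid plexus markers, against 127.7 to 3524.0 CPM in the other vehicle libraries, and stood above them in Cd63 (118.0 CPM), Ctsd (399.4 CPM) and Npc2 (185.8 CPM) among others. Without it, 12 members were higher at an unadjusted p under 0.05 and 3 were called higher: Ctss (0.36), Grn (0.24) and Tpp1 (0.12), a lysosomal tripeptidyl peptidase.

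In pons at 28 weeks edgeR called 0 of 34 members, where it called 0.0929% of all 20458 genes tested (0.0831% higher, 0.00978% lower). DESeq2 called 5, all higher: Ctsh, Laptm5, Grn, Ctsz and Hexa. The share of all genes that DESeq2 called is not given here. The 12 members higher at an unadjusted p under 0.05 stood against 7.54% of all genes, with 0 lower against 7.09%. The median member differed by 0.08 and the median of all genes by -0.01. Ctsh had 10.5, 10.4, 12.9 and 13.2 CPM under vehicle and 24.4, 15.7, 18.6 and 16.4 CPM under ASO, a difference of 0.67 ± 0.13 (adjusted p = 0.074). Laptm5 had 24.8, 24.3, 22.2 and 26.7 CPM under vehicle and 56.3, 28.5, 34.4 and 36.7 CPM under ASO, a difference of 0.67 ± 0.17 (adjusted p = 0.13). Grn had 50.6, 52.6, 55.8 and 54.1 CPM under vehicle and 92.4, 58.5, 65.6 and 64.8 CPM under ASO, a difference of 0.4 ± 0.11 (adjusted p = 0.15). In each of these genes ASO replicate 1, the library with the least Atxn1, was far above the rest, the library labelled ASO replicate 2 was the lowest of the ASO group, and no ASO library fell into the vehicle range. Hexa was the other member without overlap, at 48.9, 47.1, 48.7 and 51.4 CPM under vehicle and 67.3, 55.0, 54.1 and 52.6 CPM under ASO (0.22 ± 0.06, adjusted p = 0.15). These 4 higher members and 0 lower ones stood against 3.27% and 4.06% of all genes. Without the library labelled ASO replicate 2, Ctsh (0.76, adjusted p = 0.012), Laptm5 (0.8, adjusted p = 0.018) and Grn (0.49, adjusted p = 0.034) were called. Without ASO replicate 1 or without vehicle replicate 2, 8 members were higher at an unadjusted p under 0.05 and 0 were called. Without vehicle replicate 4, the library of its group with the lowest Atxn1 (45.2 CPM), Ctsh (0.75) and Cd63 (0.25) were called.

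**Figure D2:**
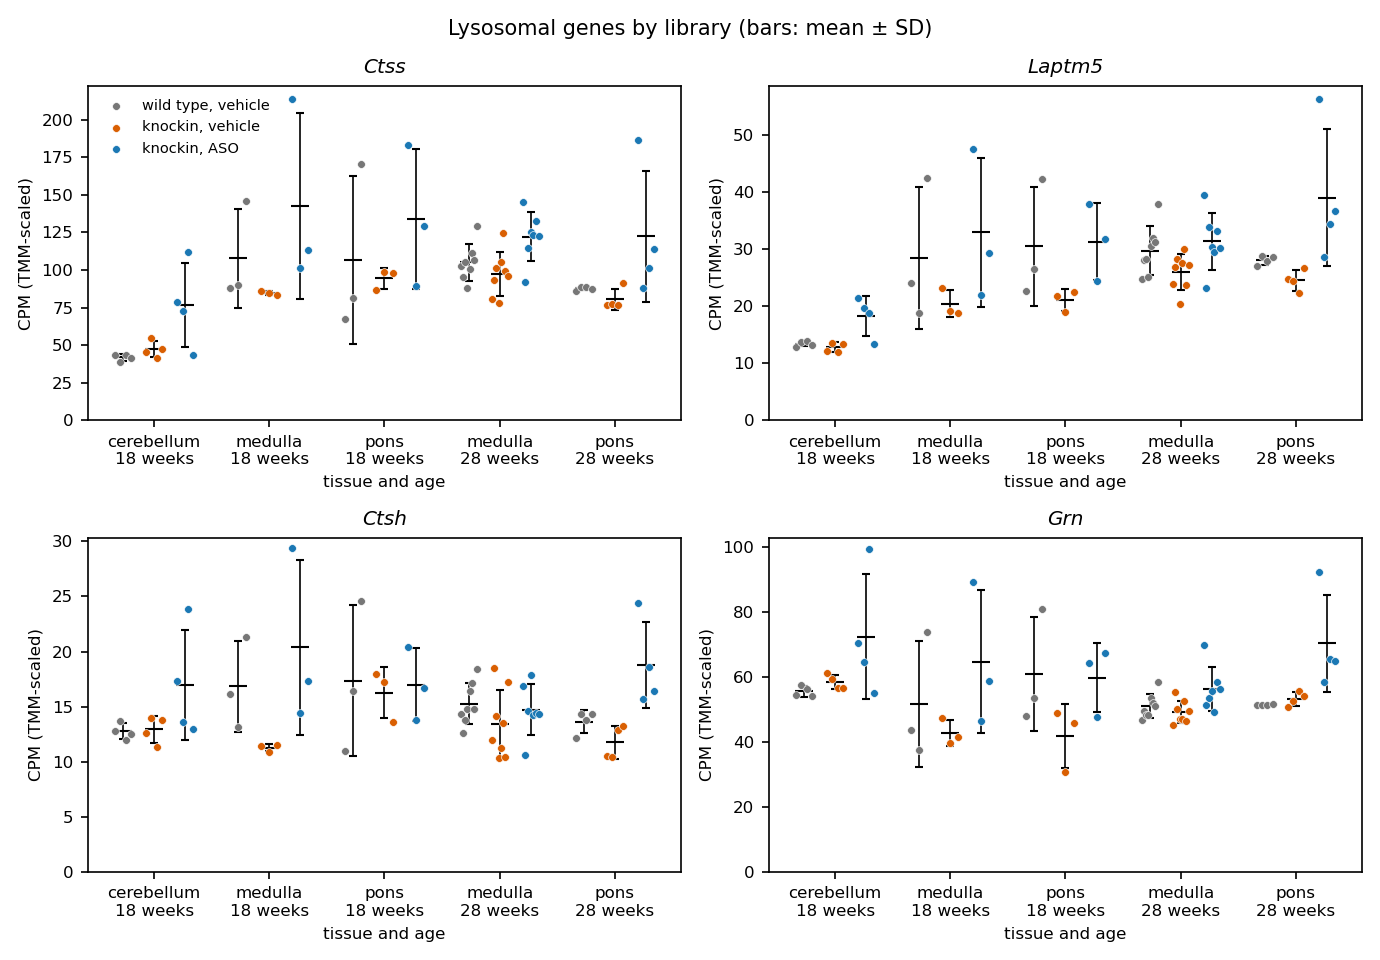
Level in CPM (vertical axes) of Ctss, Laptm5, Ctsh and Grn in every library, by tissue and age and by group, with bars at the mean ± SD. In pons at 28 weeks the ASO libraries of Ctsh, Laptm5 and Grn lie above all vehicle libraries, with Grn at 58.5 to 92.4 CPM against 50.6 to 55.8 CPM.

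By role, the cysteine cathepsins (Ctsb, Ctsc, Ctsf, Ctsh, Ctsl, Ctss and Ctsz) had median differences of 0.18 in cerebellum, 0.61 in medulla at 18 weeks, 0.0 in pons at 18 weeks, 0.03 in medulla at 28 weeks and 0.35 in pons at 28 weeks. At an unadjusted p under 0.05, 4 of the 7 were higher in pons at 28 weeks. The 8 glycosidases and sulfatases had medians of 0.07, 0.08, 0.09, -0.03 and 0.01 in the same order, with Hexa the highest of them in each. The 4 lipid hydrolases (Asah1, acid ceramidase, Lipa, acid lipase, Ppt1, which removes palmitate from proteins, and Smpd1, acid sphingomyelinase) had medians of 0.05, 0.08, -0.12, 0.02 and 0.01. Among the membrane proteins only Laptm5 was at 0.29 or above in all 5, and Npc1, Mcoln1 (a lysosomal cation channel) and Laptm4a ran from -0.25 to 0.12. Tfeb differed by -0.02 to 0.24 and was called in none of the 5 comparisons. Differences thus ranged widely between members within a role, from 0.0 (Ctsf) to 0.67 (Ctsh) among the cysteine cathepsins of pons at 28 weeks. The ASO difference did not pass the test between medulla and pons at 28 weeks for any member: edgeR called 0 of 34 and 0.0% of all genes, and 3 members were lower in medulla at an unadjusted p under 0.05 (Ctsh -0.55 ± 0.21, Laptm5 -0.39 ± 0.18 and Ctsz -0.41 ± 0.2, adjusted p = 1.0 for each).

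Within the ASO groups the order of several members was set beside that of Atxn1, as a description. In 5 of 5 tissues and ages the ASO library with the most Atxn1 had the lowest Ctss, Ctsh, Ctsz and Laptm5 of its group, and the library with the least Atxn1 had the highest Ctss, Ctsd and Ctsz. At each age the medulla and pons libraries with the most Atxn1 share a header number, as do those with the least. The 5 sets are thus not independent. Those with the most include ASO replicate 2 of pons at 18 weeks and of medulla and pons at 28 weeks. Their Atxn1 went against the label. Over the whole list, the library with the least Atxn1 was the highest of its group for 22 members in cerebellum, 24 in medulla at 18 weeks, 22 in pons at 18 weeks, 8 in medulla at 28 weeks and 31 in pons at 28 weeks. For all genes these shares were 41.2%, 32.2%, 35.8%, 14.2% and 27%. The library with the most Atxn1 was the lowest for 11, 12, 13, 23 and 16 members in the same order, against 18.4%, 30.8%, 29.3%, 17.8% and 22.6% of all genes, a share near that of all genes in medulla at 18 weeks. Mcoln1 and Neu1, which encodes a sialidase, were highest in the library with the least Atxn1 in 1 of the 5. The library labelled wild type replicate 3 at 18 weeks, with Atxn1 below all other wild-type libraries, also had the highest Ctss of its group. Ctss there was 145.6 CPM (medulla) and 170.5 CPM (pons), and 67.5 to 89.9 CPM in the other 4 wild-type libraries.

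**Figure D3:**
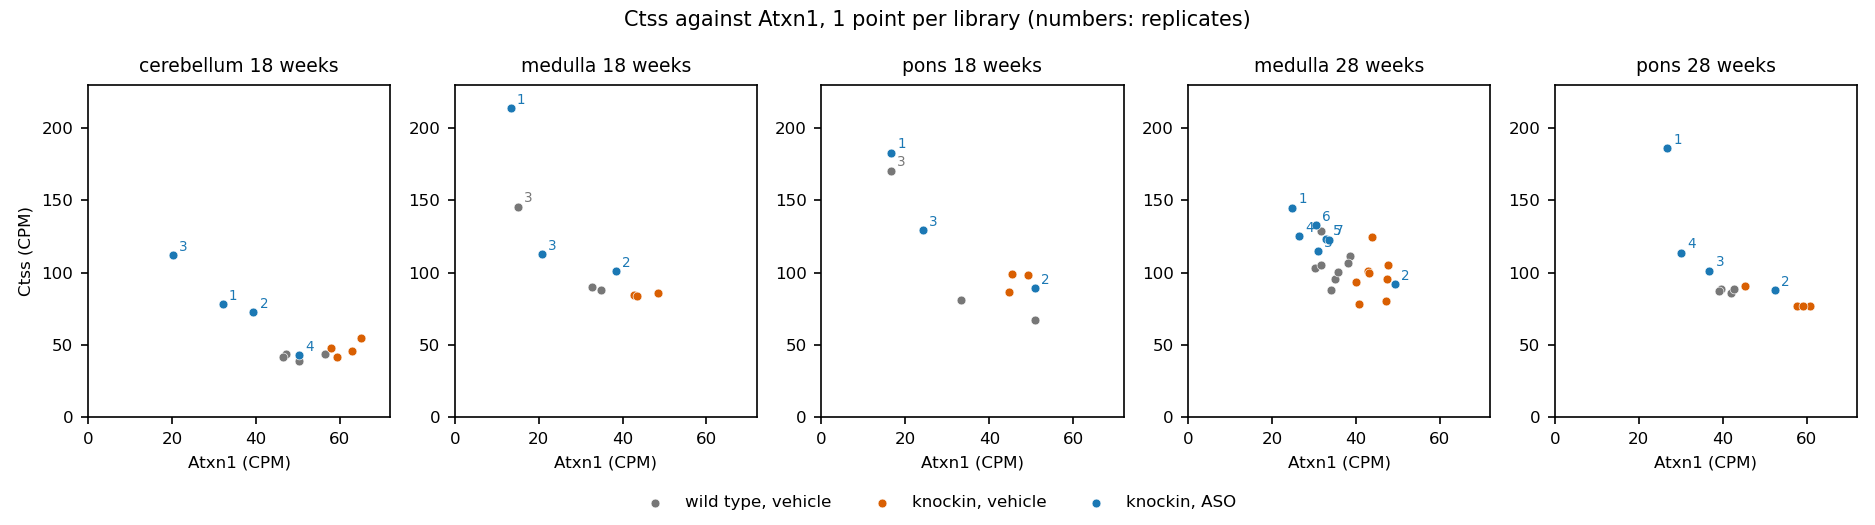
Ctss (vertical axis, CPM) against Atxn1 (horizontal axis, CPM), 1 point per library, in each tissue and age, with ASO libraries numbered by replicate. ASO libraries with less Atxn1 lie higher, up to 213.7 CPM of Ctss at 13.3 CPM of Atxn1 in medulla at 18 weeks, and the wild-type library numbered 3 lies beside the ASO libraries in both tissues at 18 weeks.

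Markers of microglia were higher beside these members in most tissues and ages, and those of astrocytes and oligodendrocytes mainly in cerebellum and at 28 weeks. Of all genes, 5.71% were higher at an unadjusted p under 0.05 in cerebellum, 3.56% in medulla and 3.83% in pons at 18 weeks. At 28 weeks these shares were 6.79% in medulla and 7.54% in pons. edgeR called 1.3% of all genes higher in medulla and 0.0831% in pons at 28 weeks. None of the 34 members is in the microglial marker lists used. At an unadjusted p under 0.05, 14 of 15 activated microglia markers were higher under ASO in cerebellum, 3 in medulla and 2 in pons at 18 weeks, 13 in medulla and 15 in pons at 28 weeks, with median differences of 1.08, 1.52, 0.88, 0.63 and 1.26. 4 of the 15 were called, all in medulla at 28 weeks: Cst7 (1.75), Itgax (1.89), Cd68 (0.63) and Trem2 (0.49). Their summed level in pons at 28 weeks was 1180.0 to 1359.5 CPM in vehicle libraries and 2559.6, 1307.9, 1747.5 and 1853.7 CPM in ASO replicates 1 to 4, the order in which Ctss stood (186.2, 88.1, 101.4 and 113.8 CPM). In medulla at 18 weeks it was 961.2 to 1025.0 CPM under vehicle and 2177.5, 1118.7 and 1465.1 CPM under ASO. In pons at 18 weeks it was 912.8 to 1161.4 CPM and 1499.4, 1077.6 and 1381.2 CPM. In cerebellum it was 1087.2 to 1263.0 CPM under vehicle and 1614.9, 1367.3, 2378.0 and 1266.2 CPM under ASO, and in medulla at 28 weeks 1111.1 to 1947.6 CPM and 1132.4 to 1911.3 CPM. Of the 12 markers of homeostatic microglia, 6, 5, 1, 7 and 7 were higher at an unadjusted p under 0.05 in the order given, and 1 was called (Fcrls, medulla at 28 weeks). Of the 11 astrocyte markers 4, 1, 0, 7 and 8 were higher at that level, and 6 were called in medulla at 28 weeks (Slc1a2 0.69). Of the 12 oligodendrocyte markers 5, 2, 0, 7 and 7 were higher, and 5 were called in medulla at 28 weeks. In pons at 18 weeks their sum had a median of 18275.7 CPM under vehicle and 13624.7 CPM under ASO. All 8 endothelial markers were higher at that level in pons at 28 weeks, with 1 called. Markers of perivascular and peripheral macrophages summed to 5.26 to 20.8 CPM and those of lymphocytes to 1.04 to 4.59 CPM over all groups. The part of these cell types, in number or state, in the differences of the lysosomal genes was not tested.

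The members most like Ctss over the 65 libraries, by Pearson correlation of log2 CPM after the group means were removed, were Laptm5 (r = 0.87), Grn (0.81), Ctsh (0.79), Ctsd (0.78) and Ctsz (0.78). Among marker genes outside the list the values included 0.95 for Tyrobp, 0.94 for C1qa and 0.93 for Trem2. These are descriptions, since all genes of a library share its depth and cell composition.

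The knockin itself was compared with wild type among vehicle-treated mice. 2 members rose, both in medulla at 28 weeks: Ppt1, the palmitoyl-protein thioesterase, and Man2b1, the lysosomal alpha-mannosidase. 19.3% of all 20465 genes were called there (9.28% higher, 9.99% lower), so the 2 of 34 are a smaller share than that of all genes. Ppt1 ranged from 141.0 through a median of 149.3 to 160.2 CPM in 8 wild-type libraries and from 146.9 through 164.7 to 178.2 CPM in 8 knockin libraries, with overlap (0.12 ± 0.03, adjusted p = 0.0073). Man2b1 ranged from 49.5 through 50.8 to 56.1 CPM in wild type and from 53.6 through 55.1 to 68.5 CPM in knockin, with wild type replicate 3 (56.1 CPM) the only wild-type library inside the knockin range (0.15 ± 0.04, adjusted p = 0.021). Under ASO the medians were 159.6 CPM for Ppt1 and 53.8 CPM for Man2b1. Ppt1 was called in 31 and Man2b1 in 29 of 32 alternative settings, and neither was called within batch 1, which held 4 libraries per group. At an unadjusted p under 0.05, 4 members were higher and 4 lower (15.6% of all genes in each direction). Lamp1, an abundant lysosomal membrane glycoprotein, was at -0.11 (adjusted p = 0.077) and Hexa at -0.14 (adjusted p = 0.099). Without knockin vehicle replicate 2, the library rich in choroid plexus markers, 7 members were called, and Hexa (-0.19), Cd63 (-0.34), Lamp1 (-0.13), Npc2 (-0.15) and Neu1 (-0.1) were the lower ones. Within batch 2 alone, 10 were called, 3 higher and 7 lower, with Cd63 the lowest at -0.48. The shares of all genes called under these settings are not given here, so whether the counts exceed them is not known. 0 members had groups that did not overlap (1.24% of all genes higher, 2.0% lower).

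In pons at 28 weeks edgeR called 0 of 34 members for knockin against wild type, where it called 9.79% of all genes (4.14% higher, 5.65% lower). DESeq2 called 4, all lower: Lipa, Cd63, Lamp2 and Lamp1. The share of all genes that DESeq2 called is not given here. At an unadjusted p under 0.05, 2 members were higher and 5 lower (13.1% and 12.9% of all genes), which is near the background. Lipa, the acid lipase that frees cholesterol and fatty acids, had 40.3, 40.4, 38.5 and 37.3 CPM in wild type and 35.2, 31.6, 34.1 and 36.5 CPM in knockin vehicle libraries, without overlap (-0.19 ± 0.06, adjusted p = 0.065). Galns had 9.17, 8.59, 9.52 and 8.27 CPM in wild type and 10.7, 11.1, 10.4 and 9.59 CPM in knockin, also without overlap (0.23 ± 0.08, adjusted p = 0.088). Cd63 (-0.18 ± 0.06, adjusted p = 0.07) and Lamp2 (-0.18 ± 0.06, adjusted p = 0.084) overlapped only through knockin replicate 4, at 56.7 and 135.3 CPM. Without that replicate 7 members were called, and the share of all genes called in that fit is not given here. Lamp1 (-0.28), Gla (-0.28, alpha-galactosidase), Lamp2 (-0.26), Cd63 (-0.24), Npc2 (-0.24) and Lipa (-0.23) were lower and Galns (0.26) was higher. In all, 3 members were higher without overlap (Galns, Gusb and Man2b1) and 3 lower (Hexa, Lipa and Laptm5), against 7.73% and 8.52% of all genes. The knockin difference between medulla and pons at 28 weeks was called for 0 of 34 members (0.0184% of all genes), with Ppt1 the leading member (0.16 ± 0.05, adjusted p = 0.39).

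At 18 weeks edgeR called 0 of 34 members for knockin against wild type in cerebellum (2.71% of all genes, 0.654% higher and 2.06% lower), medulla (0.0%) and pons (0.0%), and DESeq2 called 0 in each. In cerebellum 1 member was higher at an unadjusted p under 0.05 (6.69% of all genes) and 0 lower (7.61%). Mcoln1 had 94.7, 92.8, 95.5 and 92.2 CPM in wild type and 102.2, 99.5, 110.5 and 97.2 CPM in knockin, without overlap (0.13 ± 0.05, adjusted p = 0.29). Lamp1 had 521.5, 507.3, 494.5 and 512.0 CPM in wild type and 442.1, 458.5, 450.9 and 470.1 CPM in knockin, also without overlap (-0.16 ± 0.09, adjusted p = 0.47). Fitted without the ASO group, Mcoln1 (0.13, adjusted p = 0.044), Lamp1 (-0.16, adjusted p = 0.016) and Smpd1 (-0.14, adjusted p = 0.036) were called. The share of all genes called in that fit is not given here. The 6 cerebellar members without overlap (3 in each direction) stood against 9.44% of all genes higher and 10.7% lower. In medulla 0 members were higher and 5 lower at an unadjusted p under 0.05 (2.25% and 3.49% of all genes). Of these Lipa had 47.0, 48.1 and 47.4 CPM in wild type and 40.4, 35.5 and 41.6 CPM in knockin (-0.28 ± 0.08, adjusted p = 0.83). Without the libraries whose Atxn1 went against the label 2 members were lower at that level. With any 1 library left out, 2 to 12 were lower and 0 or 1 higher. Groups in medulla did not overlap for 1 higher and 6 lower members (5.42% and 6.38% of all genes). In pons 3 members were higher and 3 lower (6.77% and 5.42%). Lamp2 had 112.4, 124.3 and 135.5 CPM in wild type and 184.0, 178.3 and 138.0 CPM in knockin (0.43 ± 0.13, adjusted p = 0.41), and Grn and Laptm5 were at -0.54 and -0.53. Without the 2 libraries whose Atxn1 went against the label 3 members were higher and 0 lower. Groups in pons did not overlap for 5 higher and 2 lower members (9.74% and 8.64% of all genes). In medulla choroid plexus markers summed to 29.4 to 7008.5 CPM in wild type (median 5154.8) and 47.1 to 1219.0 CPM in knockin (median 52.6). In pons they summed to 28.5 to 89.5 CPM in wild type and 16.1 to 10152.4 CPM in knockin. The highest was knockin replicate 1, with 184.0 CPM of Lamp2. The part of these markers in the differences was not tested.

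Set against wild type, ASO-treated knockin mice had 0 of 34 members called by edgeR in each tissue and age, where 0.0% of all genes were called in the 3 tissues at 18 weeks, 3.8% in medulla (1.77% higher, 2.02% lower) and 1.07% in pons at 28 weeks (0.474% higher, 0.591% lower). These comparisons share their ASO libraries, or their wild-type libraries, with those above. DESeq2 called 1 member in cerebellum (Ctss), 6 in pons at 28 weeks (Ctsh, Ctsz, Laptm5, Grn, Gusb and Man2b1, all higher) and 0 in the other 3. Its share of all genes is not given here. At an unadjusted p under 0.05, 5 members were higher and 0 lower in cerebellum (6.32% and 4.66% of all genes), 0 and 0 in medulla (1.4% and 1.98%) and in pons at 18 weeks (1.1% and 1.43%), 5 and 1 in medulla at 28 weeks (9.68% and 10%) and 9 and 1 in pons at 28 weeks (8.02% and 10.2%). Without the libraries labelled ASO replicate 2 and wild type replicate 3 the 18-week counts were 9 higher and 1 lower in medulla and 2 higher and 0 lower in pons, and without wild type replicate 3 alone they were 4 and 1 in medulla and 1 and 0 in pons. Grn in pons at 28 weeks was 51.4 to 51.6 CPM in the 4 wild-type libraries and 58.5 to 92.4 CPM under ASO (0.45 ± 0.11, adjusted p = 0.065). Gusb, a beta-glucuronidase, differed by 0.22 ± 0.07 there (adjusted p = 0.11). Ctsh, Ctsl, Ctsz, Gusb and Grn were the 5 members higher without overlap there, with 0 lower (5.08% and 6.75% of all genes). Knockin vehicle libraries lay on the wild-type side for Grn, at 50.6 to 55.8 CPM.

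Other lysosomal genes were read from lists outside the 34. For ASO against vehicle, 0 of 18 V-ATPase subunits, the proton pump of the organelle, and 0 of 12 genes for sorting of lysosomal enzymes were called in any tissue or age. In medulla at 28 weeks 1 of 29 other hydrolases was called lower (Arsb, an aryl sulfatase, -0.18, adjusted p = 0.0086), 1 of 20 other membrane and lipid handling genes higher (Cd68, 0.63), 1 of the 12 MiT/TFE and autophagy genes tested lower and 1 of 5 cathepsin inhibitors higher (Cst7). Of all genes 1.3% were called higher and 0.386% lower there. Cd68 and Cst7 are also on the microglial list. For knockin against wild type in medulla at 28 weeks, 6 of 18 V-ATPase subunits fell and 0 rose, by -0.1 to -0.17 (Atp6v0d1 -0.13, Atp6v1g2 -0.15), where 9.99% of all genes were called lower. Of the 29 other hydrolases 4 rose and 0 fell there, where 9.28% of all genes were called higher, and 0 rose and 2 fell in cerebellum, where 2.06% were called lower. In medulla at 28 weeks Arsb was at 0.4 ± 0.03 (adjusted p = 9.2e-08) and Sgsh, a heparan sulfatase, at 0.19. Arsb was also higher in pons at 28 weeks (0.42 ± 0.06, adjusted p = 0.00079). Cst3, the abundant cathepsin inhibitor cystatin C, fell by 0.47 in medulla and by 0.3 in pons at 28 weeks. Of all genes 9.99% were called lower in medulla and 5.65% in pons at 28 weeks. Astrocyte markers fell beside Cst3, 7 of 11 in medulla and 5 of 11 in pons, and oligodendrocyte markers too, 9 and 6 of 12. Of 10 neuron markers 4 and 3 fell, of 15 activated microglia markers 4 and 1, and of 8 endothelial markers 0 and 2. Their part in these values was not tested.

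Between tissues, wild-type levels per kilobase of exon (CPM per kb) differed widely between members. Psap, the precursor of the saposins, was the highest member in every tissue and age, at 659.3 ± 21.6 CPM per kb (SD, n = 4) in cerebellum and 628.4 ± 12.2 (n = 4) in pons at 28 weeks. Lamp1 followed at 186.2 ± 3.76 and 215.2 ± 5.84 CPM per kb. The lowest members in pons at 28 weeks were Ctsc (1.65 ± 0.197), Galc (2.25 ± 0.0323, galactocerebrosidase), Ctsh (2.96 ± 0.227) and Tfeb (3.2 ± 0.21), and the first 2 did not overlap. In wild-type mice at 18 weeks, 15 members were lower and 2 higher in cerebellum than in medulla. Against pons, 10 were lower and 2 higher. Of all 21630 genes, 54.0% were called against medulla (27.5% lower, 26.4% higher) and 50.6% against pons (26.4% lower, 24.2% higher). The 10 lower against pons are thus near the share of all genes. With any 1 wild-type library left out, 16 to 19 members were called against medulla and 9 to 17 against pons. Lipa, at 2.9 ± 0.358 CPM per kb in cerebellum and 7.14 ± 0.138 (n = 3) in medulla, was lower by -1.3 ± 0.11 (adjusted p = 1.2e-10) and by -1.08 ± 0.11 against pons (adjusted p = 4.4e-09). Lgmn, an asparaginyl endopeptidase, was at -1.03 ± 0.11 and -0.91 ± 0.11, and Npc1, the cholesterol exporter of the membrane, at -0.94 ± 0.09 and -0.87 ± 0.09. Ctss was at -1.42 ± 0.31 against medulla and Laptm5 at -1.14 ± 0.24, and without the library labelled wild type replicate 3 of medulla these were -1.14 and -0.72, still called. Mcoln1 (0.47 and 0.38) and Ctsf (0.71 and 0.54), a cysteine cathepsin, were the 2 members higher in cerebellum. At 28 weeks medulla and pons differed for 1 member, Lgmn, higher in medulla by 0.17 ± 0.05 (adjusted p = 0.038), where 9.66% of all genes were called. The 4 pons libraries share header numbers with medulla libraries, and with that number as a block, on medulla batch 1 and pons, 0 members were called.

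**Figure D4:**
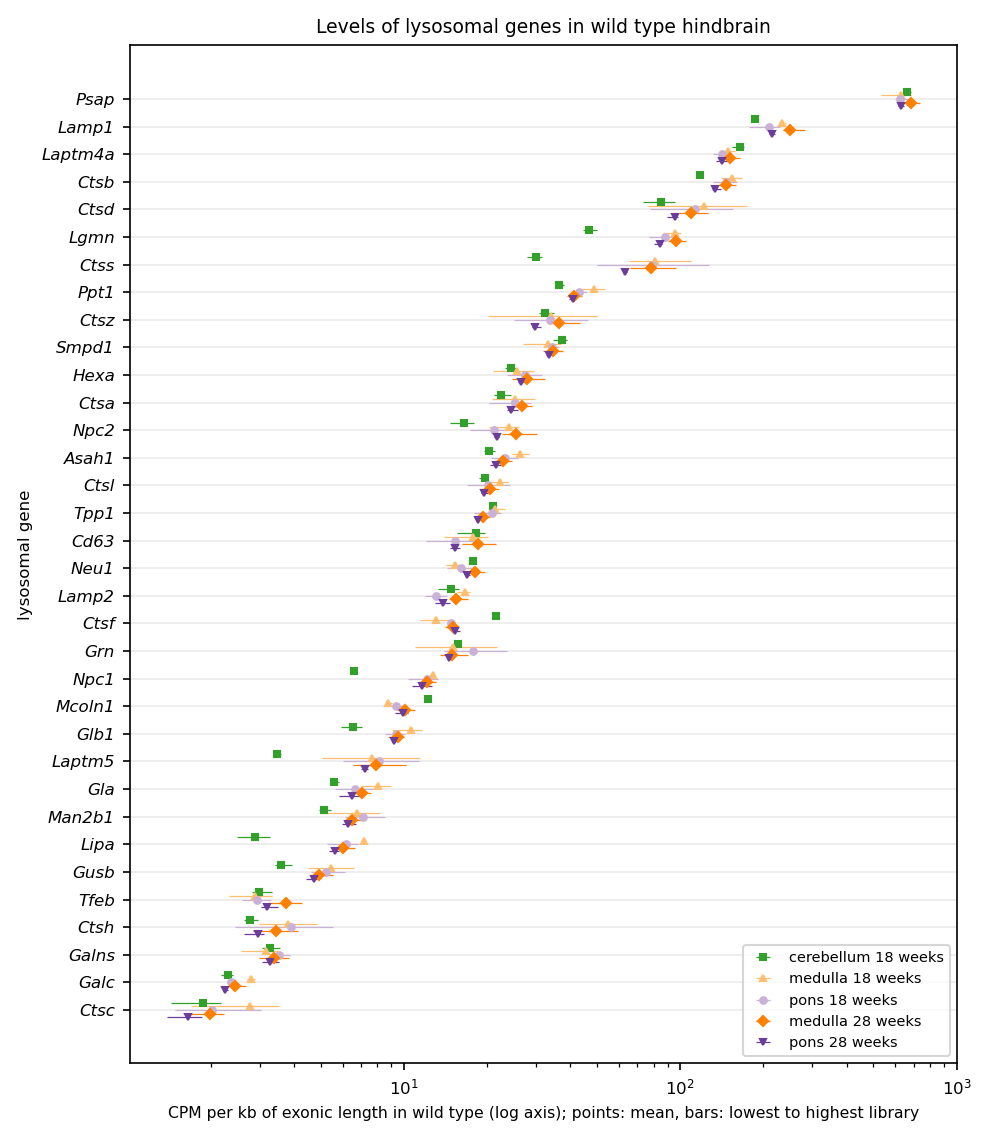
Mean wild-type level of each lysosomal gene in CPM per kilobase of exon (log axis) in each tissue and age. Levels span from 1.65 CPM per kb for Ctsc in pons at 28 weeks to 686.3 CPM per kb for Psap in medulla at 28 weeks. Ctss, Laptm5, Lipa and Lgmn lie lower in cerebellum than in medulla and pons.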

How the data were processed

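RNA-seq was read from 65 libraries of cerebellum, medulla and pons. The deposited values are raw counts per gene ID. Per the submitters' processing notes the tools were CASAVA 1.8, HISAT2 2.0.2, featureCounts of Subread, R 3.3.3 and DESeq2 1.14.1 with build GRCm38. Paired-end and strand settings of the counting are not given in the sources used here. Of counts between 1 and 20, 70.0% to 78.6% were even, so both mates of a pair may have been counted, which would make counting error larger than the counts imply. Symbols came from GENCODE vM21, which named 49411 of 49670 IDs. The 259 others held 0.035% of counts.

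Each tissue and age was fitted on its own with its 3 groups in edgeR 4.0.16 (limma 3.58.1, R 4.3.3): filterByExpr with a minimum count of 10, TMM scaling, a robust quasi-likelihood fit and p-values adjusted by Benjamini-Hochberg across every gene tested, with a call at an adjusted p under 0.05. Medulla at 28 weeks had a term for the labelled batch. The standard error is the log2 difference divided by the root of F. The difference between medulla and pons was an interaction term. Alternatives were DESeq2 1.42.0, other scaling and filters, 2 groups only, batches, a replicate block, each library left out, and added ones without libraries that stood apart, chosen after seeing the data. Models were tested on simulated data. Members and lists were chosen with earlier results of these data known. All 34 members may be named. Values per library were given for members called under ASO, otherwise for up to 4 of smallest p per comparison, with Atxn1 always and up to 3 genes of smallest p of other lists. Likeness to Ctss used log2(CPM + 0.1).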

Additional observations from a re-analysis of the deposited data

Results flagged for a closer look

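In groups of 4 to 10 libraries, 1 library stood far from the others in 21 of 171 checks over 19 genes by Dixon's criterion, where chance gives about 1 in 20. 8 of the 21 were knockin vehicle replicate 2 of medulla at 28 weeks, the library rich in choroid plexus markers, which was the highest of its group in Cd63 (118.0 CPM), Ctsc (27.4), Ctsd (399.4), Lamp2 (225.5), Laptm4a (367.7), Man2b1 (68.5), Npc2 (185.8) and Smpd1 (142.8). In pons at 28 weeks knockin vehicle replicate 4, with the least Atxn1 of its group, was the highest in Ctsd (232.6 CPM), Ctss (91.1), Lamp1 (597.9) and Npc2 (127.5). ASO replicate 1 there, with the least Atxn1 of the ASO group, was the highest in Ctsc (15.4 CPM), Hexa (67.3) and Npc2 (142.5). The library labelled ASO replicate 2 of medulla at 28 weeks was the highest of its group in Atxn1 (49.3 CPM). Single wild-type libraries stood apart in Laptm4a in cerebellum (replicate 3, 275.7 CPM), Lipa (replicate 8, 44.1 CPM) and Man2b1 (replicate 3, 56.1 CPM) in medulla at 28 weeks, and Ctsd in pons at 28 weeks (replicate 3, 215.1 CPM). In cerebellum Cd63 of knockin vehicle replicate 1 (50.6 CPM) was the lowest of its group.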

How the results depend on the processing

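Counts of members called are given for edgeR as reported, then under the alternative. The share of all genes called under each alternative is not given here, so the counts are not set against it. With DESeq2 the ASO against vehicle count went from 0 to 1 in cerebellum and from 0 to 5 in pons at 28 weeks, knockin against wild type from 0 to 4 in pons at 28 weeks, and ASO against wild type from 0 to 1 in cerebellum and from 0 to 6 in pons at 28 weeks. With only the 2 groups compared, knockin against wild type went from 0 to 3 in cerebellum and from 0 to 2 in pons at 28 weeks. In medulla at 28 weeks the 1 member called for ASO against vehicle went to 0 with no filter, with only 2 groups, in batch 1 alone, in batch 2 alone, with no batch term and without 4 libraries low in Hox genes. Knockin against wild type there went from 2 to 0 in batch 1 alone and to 10 in batch 2 alone. Wild-type medulla against pons went from 1 to 0 with no filter and with the header number as a block. The cause was not tested.

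Leaving out 1 library gave 0 to 2 members in cerebellum for ASO against vehicle (2 without ASO replicate 4), 0 to 3 for knockin against wild type (3 without ASO replicate 3) and 0 to 2 for ASO against wild type. In medulla at 28 weeks the ranges were 0 to 3 (3 without vehicle replicate 2), 2 to 7 (7 without the same library) and 0 to 2. In pons at 28 weeks they were 0 to 3 (3 without ASO replicate 2), 0 to 7 (7 without vehicle replicate 4) and 0 to 2. In medulla and pons at 18 weeks every such count within a tissue was 0. In wild type, medulla against pons gave 0 to 2 members. Cerebellum gave 16 to 19 against medulla and 9 to 17 against pons. 0 results reversed, and 393 main counts and settings stayed within 1.5 times while 50 moved, and 563 values of single genes kept their call while 26 gained and 19 lost one.

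Equal replicate numbers gave no general pairing of the libraries: correlations of same-numbered deviations ran from -0.45 to 0.39, and in no comparison was every pair over 0.1. With the replicate block, knockin against wild type in medulla at 28 weeks went from 2 to 1 called member (Ppt1), and no other count of members changed call. In knockin against wild type in medulla at 18 weeks 3 samples lay closest to their own number.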
